A study of Mus musculus with 16 samples.

Results

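The mitochondrial carriers are a family of transport proteins, mainly of the inner membrane, most of them encoded by genes named Slc25a, to which the uncoupling proteins also belong. All rows of the count table named Slc25a plus a number were taken, together with Ucp2 and Ucp3, which gave 48 genes (46 Slc25a genes and 2 uncoupling proteins) out of 25745. Ucp1 was not analysed here. Of the 48, 42 had enough counts to be tested among 14445 genes, and the other 6 (Slc25a2, Slc25a18, Slc25a21, Slc25a31, Slc25a41 and Ucp3) held between 1 and 15 counts each over all 16 libraries.

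RNA was sequenced from 6DT1, a mammary cancer line of mouse strain FVB/N1, bearing a lentivirus that expresses CLIC4, a chloride intracellular channel protein, or an empty lentiviral vector. Cells of each kind were untreated or exposed to 1 µM hydrogen peroxide (H2O2) for 24 h, giving 4 groups of 4 libraries, and all groups had therefore been transduced. The labels conflict on genotype: in the descriptions, libraries with the empty vector are marked as CLIC4 knockout and those with CLIC4 lentivirus as wild type, but the series text names only the vectors. No label says that the libraries of a group were separate cultures, clones or pools, so a p-value reflects the spread of these libraries alone and that spread may be technical. The series title places the work in mitochondrial function and oxidant resistance.

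Most carriers move particular small molecules (nucleotides, phosphate, carboxylates, amino acids, cofactors or metals) across the inner membrane, usually in exchange for another, and so couple the cytosol to the matrix. The ADP/ATP and phosphate carriers feed ATP synthase. Uncoupling proteins let protons return without ATP synthesis. In tumour cells the carriers link glycolysis, glutamine use and nucleotide synthesis to respiration.

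Clic4 was the check of the labels. The untreated lentivirus libraries held 225, 244, 222 and 223 CPM, the share of counts scaled to a common depth by the TMM method of edgeR (values stand in library order, libraries 1 to 4), and the treated ones (5 to 8) 249, 258, 230 and 234 CPM. The untreated empty-vector libraries (9 to 12) held 41.5, 41.2, 138 and 44.7 CPM and the treated ones (13 to 16) 45.1, 41.8, 43.0 and 39.5 CPM. All lentivirus libraries were thus above all empty-vector libraries, and the third untreated empty-vector value, of library 11, lay between them. The log2 change, empty vector minus lentivirus, was -1.79 untreated and -2.52 treated (edgeR adjusted p = 2.88e-04 and 1.78e-05), and -2.43 untreated without library 11.

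Library 11 stood apart in the carriers as well. Its log2(CPM + 1) values correlated with those of its group at no more than 0.879, against at least 0.997 for the other libraries within groups. Among 41 carriers with at least 10 counts in that group, 12 were at least 2-fold above the mean of libraries 9, 10 and 12 in CPM, 11 were at least 2-fold below it, and all 41 lay outside the range of those 3 libraries. The same shares over all genes were not computed, so these counts describe library 11 and do not set the carriers apart from other genes. The counts also depend on scaling. The TMM factor of library 11 was 0.721, against 0.986 to 1.04 in the other libraries, which raises its CPM values. In FPKM, the deposited level per length and depth, Slc25a14 (5.86) and Slc25a35 (0.47) of library 11 lay within that range. Slc25a5, Slc25a36 and Slc25a39 were above the range in CPM and below it in FPKM. Slc25a29, Slc25a48, Slc25a25, Slc25a34, Slc25a38 and Slc25a3 were among the highest relative to the others, and Slc25a24 and Slc25a16 the lowest. The carriers' summed share of counts did not stand out, at 0.321% in library 11 and between 0.312% and 0.328% in all libraries. The median coefficient of variation of a carrier was 34.7% in the untreated empty-vector group, 4.45% without library 11, and 3.98% to 4.31% in the other groups. Results are therefore given with 16 libraries and, where leaving it out moved the value by over 1.5 times or changed the call, without library 11.

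**Figure D1:**
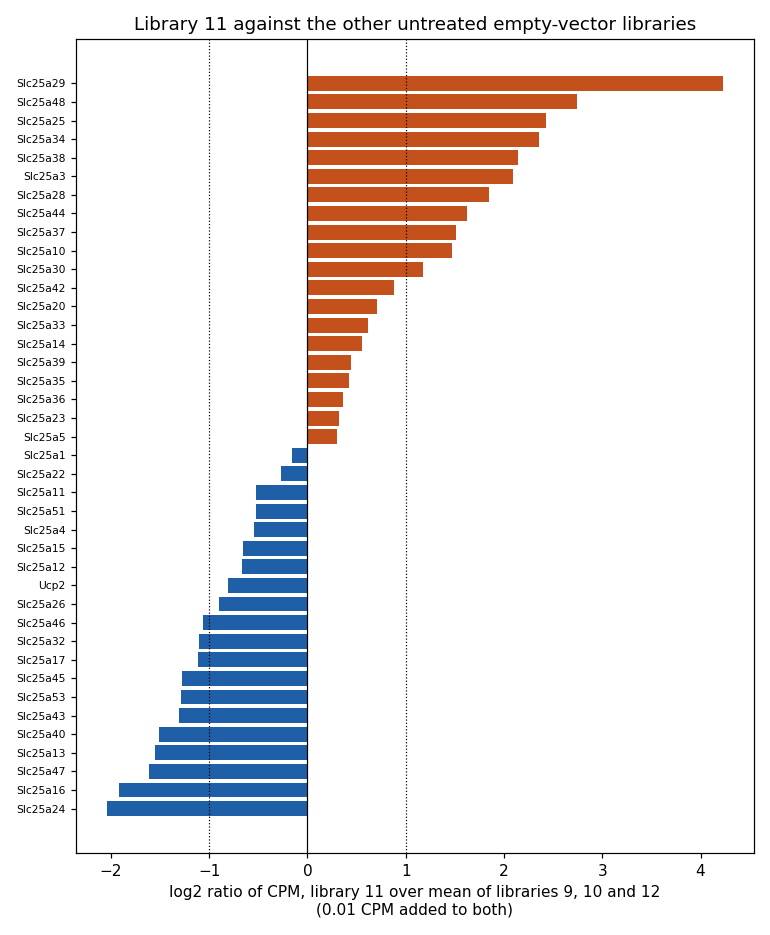
Log2 ratio of CPM in library 11 over the mean of libraries 9, 10 and 12 for 40 carriers; 0.01 CPM was added to both, and dotted lines mark 2-fold. Bars to the right are higher in library 11 and bars to the left lower, with 11 of them past the 2-fold line on each side.

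Total counts ran from 47.1 M to 61.9 M per library. Of the epithelial markers, Krt8 led in both kinds of cell (summed list 743 to 838 CPM with the empty vector, 488 to 542 CPM with the lentivirus), while Cdh1, Krt14 and Krt5 were below 1 CPM on average in both. Epcam was below 1 CPM in every library but library 11, at 13.0 CPM. The summed endothelial list (Cdh5 leading, with Pecam1 and Kdr below 1 CPM) was 3.53 to 7.72 CPM with the empty vector (at most 4.73 CPM without library 11) and 79.9 to 85.9 CPM with the lentivirus. The 3 measured immune markers summed to 218 to 383 (at most 253 without library 11) and 77.3 to 92.6 CPM, nearly all of it Cd68, and Ptprc, the defining leukocyte gene, had 0 counts in the empty-vector libraries and a mean below 1 CPM with the lentivirus. The fibroblast list reached 13.9 to 16.7 CPM with the empty vector and 6.20 to 8.53 CPM with the lentivirus, led by Pdgfra (means 15.6 and 4.55 CPM). Its other members went the other way. Dcn had 3 to 8 counts per empty-vector library and 84 to 139 per lentivirus library, and Lum 0 to 1 and 9 to 18. The adipocyte list reached at most 0.181 CPM and the muscle list at most 2.93 CPM (0.0353 and 0.235 CPM in empty-vector libraries without library 11). The part of these marker differences in the carrier results below was not tested, and in bulk RNA fewer cells of a type and less RNA per cell cannot be told apart.

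Per unit of gene length, a handful of carriers held most of the family's transcript. In FPKM, the deposited level scaled to gene length and depth, the highest mean levels in untreated lentivirus cells were 402 for Ucp2, 384 for the phosphate carrier Slc25a3, 304 for the ADP/ATP carrier Slc25a4, 177 for the glutathione carrier Slc25a39 and 150 for the ADP/ATP carrier Slc25a5. These 5 genes held 71.3% of the family's summed FPKM there, 71.5% in treated lentivirus cells, and 70.3% and 68.3% in untreated and treated empty-vector cells. In untreated lentivirus cells a further 16 tested carriers lay between 10 and 100 FPKM, 18 between 1 and 10, and 3 below 1. Slc25a23 was 29th of the 42 in untreated lentivirus cells, at 5.66 FPKM, and 38th in treated empty-vector cells, at 0.915 FPKM.

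**Figure D2:**
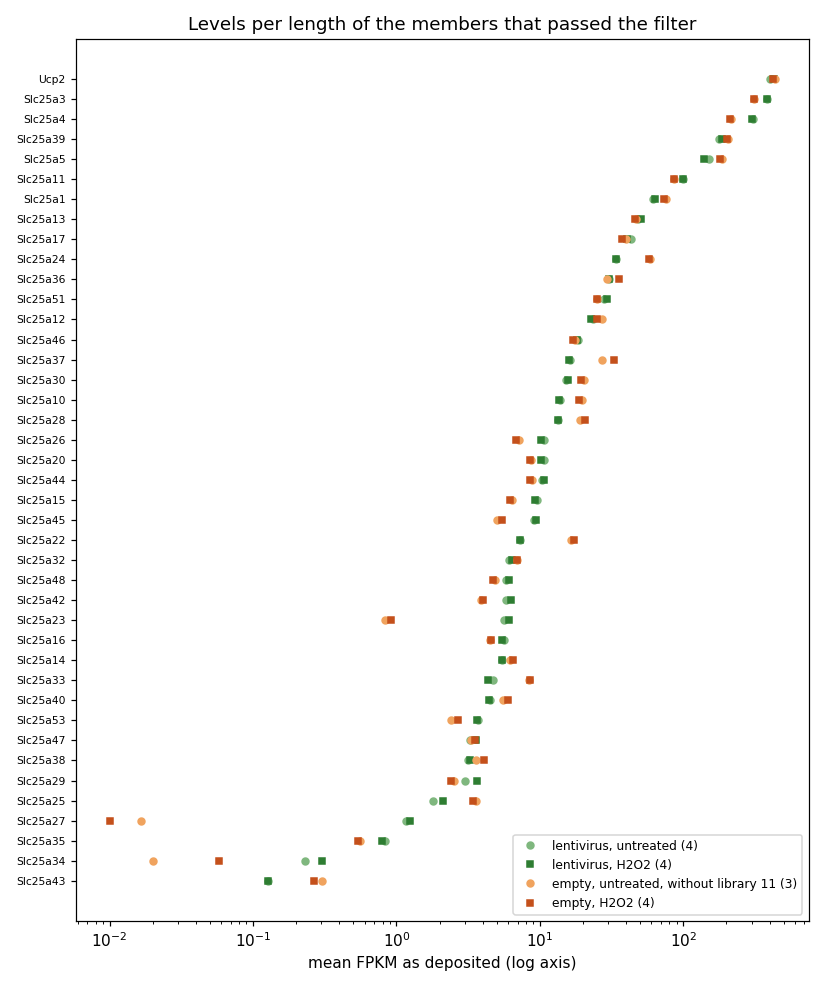
Mean deposited FPKM (log axis) of 41 tested carriers in each group, ordered by the untreated lentivirus level; untreated empty-vector means leave out library 11, and the bracketed figure is the number of libraries. Ucp2, Slc25a3, Slc25a4, Slc25a39 and Slc25a5 head every group, and Slc25a27, Slc25a34 and Slc25a23 show the widest gaps between the vectors.

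The first comparison asks which carriers differ between empty-vector and lentivirus cells without oxidant. With 16 libraries 11 of the 42 were higher and 11 lower in empty-vector cells at an edgeR quasi-likelihood adjusted p under 0.05 (Benjamini-Hochberg over all genes tested). Among all genes tested 29% were higher and 24.3% lower, 53.3% in all, so the carriers were called about as often as genes in general. The median log2 change was -0.058 over the carriers and 0.026 over all genes. Without library 11, 15 were higher and 22 lower, against a background of 37% and 37.3% (74.4% in all), with medians of -0.14 and -0.021. Of the 22 carriers called with 16 libraries, 21 remained called in the same direction without library 11; Slc25a29 did not, and 16 more were gained.

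In H2O2-treated cells 5 carriers were higher and 11 lower with the empty vector, 26 were not called, and the background was 22.1% higher and 20% lower, 42.1% in all. The median log2 change was -0.13 over the carriers and -0.011 over all genes. Without library 11, whose group is not in this comparison but shares its estimate of the spread, 14 were higher and 22 lower (background 36.6% and 37.2%, 73.8% in all). All 16 carriers called with 16 libraries remained called. With 16 libraries 5 were higher and 10 lower in both comparisons, and without library 11 13 and 21. None was called in opposite directions in either fit. The share of all genes called the same way in both comparisons was not computed. Counts of carriers by role, given below, stand against the shares of all genes stated here for each comparison and fit.

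**Figure D3:**
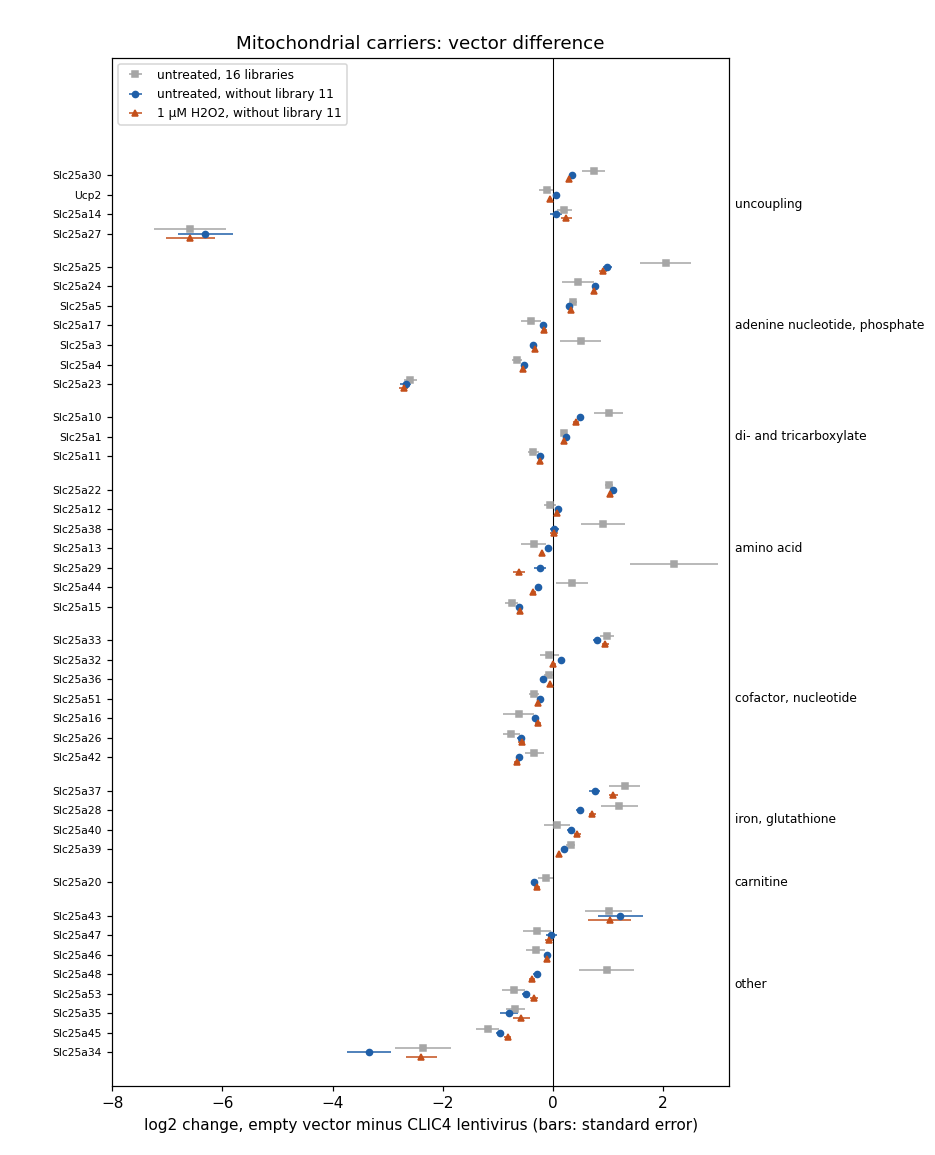
Log2 change, empty vector minus CLIC4 lentivirus, of 41 carriers by role, with bars of 1 standard error from edgeR. Grey squares (untreated, 16 libraries) leave the blue circles (untreated, without library 11) in carriers such as Slc25a29 and Slc25a25, whereas Slc25a27, Slc25a23 and Slc25a22 keep their place in untreated and treated cells.

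Among the uncoupling proteins, Ucp2, a proton and metabolite carrier, was high in all groups. Its levels were 471, 445, 490 and 455 CPM in untreated and 484, 506, 487 and 511 CPM in treated lentivirus cells. With the empty vector they were 479, 501, 275 and 470 CPM untreated and 467, 479, 506 and 459 CPM treated. The groups overlapped apart from the single low value of library 11. The log2 change was -0.11 untreated (edgeR adjusted p = 0.510; 0.056 without library 11) and -0.056 treated (adjusted p = 0.782), and without library 11 the 95% intervals were -0.026 to 0.14 and -0.13 to 0.021. The exons of Ucp2 overlap those of Dnajb13, and strandedness is not given in the sources used here, so a share of these reads cannot be assigned.

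Slc25a27, also known as UCP4 and described mainly in brain, lay at the other extreme and is named outside the rule for named genes, after its values were seen. Untreated lentivirus libraries held 1.98, 2.39, 3.41 and 2.28 CPM and treated ones 2.18, 2.88, 3.49 and 2.26 CPM. The untreated empty-vector libraries held 0, 0, 0 and 0.0930 CPM and the treated ones 0, 0.0518, 0.0329 and 0.0177 CPM. The groups did not overlap in either condition. Summed over 4 libraries the counts were 549 with the lentivirus and 5 with the empty vector untreated, a ratio of 105 (95% counting interval 44.8 to 326), and 617 and 6 treated, a ratio of 104 (47.4 to 284). Such intervals cover counting error only. Both differences were called (edgeR adjusted p = 1.46e-06 and 1.12e-06). The gene spans 43641891 to 43667214 of chromosome 17 (mm10, minus strand).

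Slc25a30 and Slc25a14, related to the uncoupling proteins, differed less. Slc25a30 was higher with the empty vector in untreated cells (0.74, edgeR adjusted p = 0.00870; 0.35 without library 11; not called with the compared groups alone), and in treated cells only without library 11 (0.30, adjusted p = 4.75e-08). Slc25a14 was called only in treated cells without library 11 (0.24, adjusted p = 0.0248), and its untreated change was 0.21 with 16 libraries and 0.055 without library 11.

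Both expressed ADP/ATP carriers, which exchange cytosolic ADP for matrix ATP, were called, in opposite directions. Slc25a4 (ANT1, chromosome 8, 46206797 to 46211284) held 497, 528, 496 and 534 CPM in untreated and 512, 508, 500 and 501 CPM in treated lentivirus cells. It held 350, 371, 243 and 343 CPM in untreated and 341, 357, 347 and 344 CPM in treated empty-vector cells. Every empty-vector library was below every lentivirus library, by a log2 change of -0.65 (SE 0.0979, edgeR adjusted p = 7.37e-05) untreated and -0.54 (SE 0.0977, adjusted p = 4.10e-04) treated.

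Slc25a5 (ANT2, chromosome X, 36795651 to 36798807) held 153, 148, 152 and 161 and 140, 140, 142 and 142 CPM in untreated and treated lentivirus cells, and 196, 185, 230 and 178 and 173, 177, 173 and 188 CPM in the empty-vector cells. Here every empty-vector library was above every lentivirus library, by 0.36 (SE 0.0697, edgeR adjusted p = 5.74e-04) and 0.33 (SE 0.0697, adjusted p = 0.00128). The FPKM ratio of Slc25a4 to Slc25a5 was 2.03 ± 0.0935 and 2.16 ± 0.0501 in untreated and treated lentivirus cells, and 1.03 ± 0.259 and 1.18 ± 0.0554 in empty-vector cells (SD, n = 4 each). Without library 11 the untreated empty-vector ratio was 1.15 ± 0.0693 (SD, n = 3). Slc25a5 has 1 named pseudogene in the annotation, to which the authors' counting could have assigned some reads.

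The phosphate carrier Slc25a3 depended on library 11. Its levels were 485, 449, 489 and 470 CPM in untreated lentivirus and 386, 377, 1572 and 342 CPM in untreated empty-vector cells, so library 11 was above and the other 3 below every lentivirus library. The log2 change was 0.50 (edgeR adjusted p = 0.274) with library 11 and -0.36 (adjusted p = 1.61e-07) without it. In treated cells it was -0.33 in both fits, not called with 16 libraries (adjusted p = 0.522) and called without library 11 (adjusted p = 1.44e-07).

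The 3 ATP-Mg/phosphate carriers, which are calcium-regulated and set the adenine nucleotide pool of the matrix, differed in direction. Slc25a23, which has also been tied to mitochondrial calcium uptake, was lower with the empty vector: 15.5, 16.7, 16.0 and 14.8 CPM in untreated and 17.4, 18.2, 15.7 and 17.3 CPM in treated lentivirus libraries. With the empty vector it was 2.40, 2.18, 3.08 and 2.83 CPM untreated and 2.95, 2.76, 2.48 and 2.31 CPM treated. The groups were far apart, with library 11 only just above the others of its own. The log2 change was -2.59 (SE 0.118, edgeR adjusted p = 4.55e-10), 6.02-fold lower, in untreated cells and -2.71 (SE 0.119, adjusted p = 2.99e-10), 6.53-fold lower, in treated cells. Exons of the antisense gene Gm17168 overlap those of Slc25a23.

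Slc25a24 and Slc25a25, named outside the rule after their values were seen, lay on the other side. Slc25a24 held 111, 104, 108 and 108 and 105, 105, 108 and 109 CPM with the lentivirus, and 189, 180, 44.4 and 179 and 175, 179, 178 and 187 CPM with the empty vector, untreated and treated. All empty-vector libraries but library 11, at 44.4 CPM, were above all lentivirus libraries. It was not called with 16 libraries (0.46 and 0.75, edgeR adjusted p = 0.201 and 0.0545) and was higher without library 11 (0.76 and 0.75, adjusted p = 3.62e-14 and 1.37e-14). Slc25a25 held 5.55, 4.47, 4.58 and 4.59 CPM in untreated lentivirus and 9.05, 9.30, 51.1 and 10.2 CPM in untreated empty-vector cells, with library 11 by far the highest. Its log2 change was 2.05 (edgeR adjusted p = 0.00199) and 0.99 without library 11. In treated cells it was 0.90 (adjusted p = 0.126), called without library 11 (adjusted p = 4.59e-10).

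Promoter windows, 250 bases before to 50 bases after a gene's start, are shown for 3 carriers that stood in different places: Slc25a23 (lower), Slc25a33 (higher) and Ucp2 (not called). Sequences are from RefSeq, build GRCm38.p6, read 5′ to 3′ on the gene's strand at chr17:57059814-57060113 (minus), chr4:149774218-149774517 (minus) and chr7:100493108-100493407 (plus). Capitals mark a match to the antioxidant response core TGACNNNGC, here on the reverse strand in each, and in Slc25a33 also the E-box CACGTG.
Slc25a23: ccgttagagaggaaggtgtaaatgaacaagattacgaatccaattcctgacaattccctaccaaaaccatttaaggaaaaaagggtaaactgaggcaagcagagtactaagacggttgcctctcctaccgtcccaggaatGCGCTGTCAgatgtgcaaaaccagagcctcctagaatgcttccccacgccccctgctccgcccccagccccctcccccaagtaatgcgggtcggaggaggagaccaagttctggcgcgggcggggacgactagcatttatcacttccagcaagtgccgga
Slc25a33: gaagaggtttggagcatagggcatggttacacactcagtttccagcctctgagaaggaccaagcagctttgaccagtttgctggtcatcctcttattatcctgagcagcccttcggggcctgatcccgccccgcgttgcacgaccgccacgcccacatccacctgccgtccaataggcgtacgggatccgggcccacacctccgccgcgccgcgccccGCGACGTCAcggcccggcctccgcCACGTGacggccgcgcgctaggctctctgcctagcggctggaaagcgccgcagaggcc
Ucp2: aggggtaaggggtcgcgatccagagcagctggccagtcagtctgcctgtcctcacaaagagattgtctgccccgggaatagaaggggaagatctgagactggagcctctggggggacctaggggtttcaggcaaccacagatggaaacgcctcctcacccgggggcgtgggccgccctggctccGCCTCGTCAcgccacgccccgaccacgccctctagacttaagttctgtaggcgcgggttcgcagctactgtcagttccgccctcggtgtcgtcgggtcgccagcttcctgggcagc

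The table had a window for 37 of the 48 carriers, 47 windows in all. On either strand TGACNNNGC was present in 13 of these windows, from 10 genes (Slc25a3, Slc25a5, Slc25a14, Slc25a23, Slc25a25, Slc25a33, Slc25a38, Slc25a40, Slc25a53 and Ucp2), and in 12.4% of all 32851 windows. The E-box CACGTG was in 8 windows from 7 genes, and in 7.15% of all windows. The NRF1 site was in 2 carrier windows (Slc25a3 and Slc25a31) and 4.6% of all. TNAAGGTCA, an ERRalpha site (1.28% of all windows), and TGATGNAA, the ATF4 composite site (3.97%), were in no carrier window. All 3 windows printed hold the antioxidant core, which 10 of the 37 genes with a window have. They are picked examples, so their sharing it cannot show whether the core goes with direction, which was not tested. A match is a description of letters only.

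Among the carboxylate carriers, the citrate carrier Slc25a1, which supplies citrate for lipid synthesis, was slightly higher with the empty vector. It held 72.4, 72.1, 68.3 and 74.7 CPM untreated and 72.1, 71.0, 74.6 and 73.2 CPM treated with the lentivirus, and 82.0, 84.7, 75.9 and 87.8 CPM and 84.8, 84.1, 87.2 and 76.7 CPM with the empty vector. In CPM the groups did not overlap in either condition. In deposited FPKM library 11, at 43.6, was below every untreated lentivirus library (57.35 to 63.98). Log2 changes were 0.20 (SE 0.0588, edgeR adjusted p = 0.0105) and 0.19 (SE 0.0588, adjusted p = 0.0153). Both calls of Slc25a1 ended with no filter and on either FPKM scale, and the untreated one also with the compared groups alone.

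The dicarboxylate carrier Slc25a10 held 22.9, 25.2, 24.2 and 25.2 and 35.3, 35.8, 94.4 and 31.3 CPM in untreated lentivirus and empty-vector cells, with library 11 the highest, and 23.5, 25.2, 23.0 and 23.7 and 30.4, 33.0, 33.5 and 30.6 CPM treated. The groups did not overlap. It was higher untreated (1.01, edgeR adjusted p = 0.00589; 0.49 without library 11; not called with the compared groups alone), and treated only without library 11 (0.42, adjusted p = 2.46e-07). The oxoglutarate carrier Slc25a11, part of the malate-aspartate shuttle, was lower: -0.36 (edgeR adjusted p = 0.00542) untreated and -0.24 (adjusted p = 0.0483) treated. The treated call of Slc25a11 ended when any library other than 9 or 11 was left out (adjusted p up to 0.105), with no filter and on either FPKM scale, and the untreated call with the compared groups alone.

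Of 7 tested amino acid carriers, 2 were higher and 1 lower untreated, and 1 and 1 treated (2 and 3, and 1 and 4, without library 11). The glutamate carrier Slc25a22, which brings glutamate into the matrix, was the one higher in both. Its levels were 14.2, 14.2, 15.6 and 13.8 and 14.7, 15.9, 14.7 and 16.4 CPM in untreated and treated lentivirus libraries. With the empty vector they were 31.1, 30.7, 25.4 and 30.0 and 32.2, 30.8, 32.8 and 30.9 CPM. No library of one kind came near the other kind. The change was 2.03-fold (log2 1.02, SE 0.0769, edgeR adjusted p = 7.41e-08) and 2.05-fold (log2 1.04, SE 0.0768, adjusted p = 6.10e-08).

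The ornithine carrier Slc25a15, a urea cycle and polyamine link, was the one lower in both. It held 31.9, 30.8, 30.1 and 29.7 and 28.5, 29.1, 29.2 and 30.0 CPM with the lentivirus, and 20, 20.9, 12.7 and 19.3 and 19.6, 19.2, 19.4 and 18.9 CPM with the empty vector, without overlap. Its log2 changes were -0.75 (SE 0.116, edgeR adjusted p = 9.98e-05) and -0.60 (SE 0.116, adjusted p = 7.22e-04).

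Slc25a29, a basic amino acid carrier, was called higher untreated (2.20, edgeR adjusted p = 0.0321) with library 11 at 77.3 CPM. The other untreated empty-vector libraries held 4.75, 3.89 and 3.74 CPM, and the lentivirus libraries 4.53, 4.69, 5.30 and 4.95 CPM. Without library 11 the change was -0.24 (adjusted p = 0.0680), and the call also ended when library 1, 2, 3 or 4 was left out, with the compared groups alone and on either FPKM scale. In treated cells without library 11 Slc25a29 was lower (-0.62, edgeR adjusted p = 2.42e-05), as was the branched-chain amino acid carrier Slc25a44 in both conditions (-0.26 and -0.36; untreated 0.34 and not called with 16 libraries). The aspartate-glutamate carriers were called only without library 11 (untreated -0.050 and -0.35 with 16 libraries). Slc25a12 was then higher untreated (0.091, edgeR adjusted p = 0.0159) and at 0.066 treated (adjusted p = 0.0546), and Slc25a13 was lower in both (-0.091 and -0.19, adjusted p = 0.00811 and 2.17e-06). Slc25a38, the glycine carrier of heme synthesis, was at 0.021 and 0.016 there and was not called, nor with 16 libraries (0.90 untreated, adjusted p = 0.0677).

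Of the 8 carriers of cofactors and nucleotides, 1 was higher and 2 lower untreated, and 1 and 3 treated (2 and 6, and 1 and 5, without library 11). Slc25a33, a pyrimidine nucleotide carrier (chromosome 4, 149744036 to 149774277), held 7.18, 7.98, 7.29 and 8.85 and 7.21, 6.82, 7.42 and 7.26 CPM with the lentivirus, and 13.5, 13.0, 20.8 and 14.2 and 14.1, 13.1, 14.2 and 14.0 CPM with the empty vector. All empty-vector libraries were above all lentivirus libraries, by a log2 change of 0.98 (SE 0.131, edgeR adjusted p = 2.71e-05) and 0.95 (SE 0.131, adjusted p = 3.70e-05). Its paralogue Slc25a36 was not called with 16 libraries (-0.078 and -0.058) and was lower in untreated cells without library 11 (-0.18, edgeR adjusted p = 2.71e-04), not in treated ones (-0.057, adjusted p = 0.134). Exons of the antisense gene Gm13068 overlap Slc25a33.

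Slc25a26, which imports S-adenosylmethionine for methylation in the matrix, was lower. It held 16.7, 16.4, 17.2 and 16.3 and 15.7, 14.5, 15.6 and 17.1 CPM with the lentivirus, and 11.7, 11.7, 5.96 and 9.99 and 10.4, 11.7, 10.3 and 10.2 CPM with the empty vector, without overlap. This gave -0.76 (edgeR adjusted p = 0.00121) and -0.57 (adjusted p = 0.00964), and the treated call ended on either FPKM scale.

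Slc25a51, the NAD+ carrier, was also lower: 108, 113, 111 and 111 and 117, 115, 117 and 115 CPM with the lentivirus against 92.1, 96.4, 65.7 and 95.2 and 97.6, 98.5, 94.4 and 93.5 CPM. The groups did not overlap, and the log2 change was -0.34 (edgeR adjusted p = 0.00663) and -0.27 (adjusted p = 0.0299). Without library 11 the untreated change of Slc25a51 was -0.23. Both calls ended on either FPKM scale, the untreated one with the compared groups alone and the treated one with no filter. The treated call of Slc25a51 also ended when any of libraries 5 to 8 or 13 to 16 was left out. Slc25a42, a coenzyme A carrier, was lower in treated cells (-0.66, edgeR adjusted p = 0.00551) and was not called untreated (-0.34, adjusted p = 0.101) unless library 11 was left out (-0.61, adjusted p = 9.00e-08).

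The cofactor carriers Slc25a16 and Slc25a32 were called only without library 11. So was Slc25a17, which was grouped with the adenine nucleotide and phosphate carriers and is not in the cofactor counts. Slc25a16, linked to coenzyme A, was then lower in both conditions (-0.33 and -0.27, edgeR adjusted p = 8.76e-06 and 3.22e-05; untreated -0.62 with 16 libraries). The peroxisomal carrier Slc25a17 was lower in both as well (-0.18 and -0.16, adjusted p = 9.24e-04 and 0.00182; untreated -0.39 with 16 libraries). Slc25a32, the folate and FAD carrier, was higher untreated (0.14, adjusted p = 0.00885; -0.065 with 16 libraries).

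With 16 libraries 3 of the 4 iron and glutathione carriers were higher untreated and 1 treated, where 29% and 22.1% of all genes were higher. Without library 11 all 4 were higher in both conditions, where 37% and 36.6% of all genes were. Whether these 4 differ from those shares was not tested. Slc25a37 (mitoferrin-1), an importer of iron for heme and iron-sulfur clusters, held 73.8, 67.3, 90.6 and 69.1 and 65.5, 76.2, 77.4 and 75.8 CPM with the lentivirus. With the empty vector it held 128, 122, 362 and 131 CPM untreated and 153, 144, 168 and 165 CPM treated. The groups did not overlap, and library 11 was the highest. The log2 change was 1.30 (SE 0.284, edgeR adjusted p = 0.00159; 0.75 without library 11) and 1.10 (SE 0.283, adjusted p = 0.00588). Its exons overlap those of the antisense genes Gm27223 and Gm31748.

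Slc25a28 (mitoferrin-2) held 17.1, 17.0, 20.8 and 16.7 and 24.9, 25.4, 90.3 and 25.0 CPM in untreated lentivirus and empty-vector cells, and 16.7, 18.1, 18.9 and 17.5 and 29.4, 27.0, 30.2 and 30.0 CPM treated, without overlap. It was higher untreated (1.21, edgeR adjusted p = 0.00872; 0.49 without library 11; not called with the compared groups alone) and, without library 11, treated (0.71, adjusted p = 1.98e-09; adjusted p = 0.108 with 16 libraries). Of the glutathione carriers, Slc25a39 held 248, 252, 235 and 247 and 277, 284, 381 and 284 CPM untreated and 251, 261, 253 and 254 and 273, 285, 285 and 257 CPM treated. The groups overlapped in treated cells alone. Slc25a39 was higher untreated (0.32, edgeR adjusted p = 0.00643; 0.20 without library 11; not called with the compared groups alone) and treated only without library 11 (0.11, adjusted p = 0.00459). Slc25a40 held 9.66, 10.9, 11.6 and 10.8 and 14.3, 13.6, 4.69 and 12.3 CPM untreated, with library 11 the lowest, and 10.3, 10.3, 11.0 and 10.7 and 12.9, 14.6, 14.1 and 15.9 CPM treated. It was called only without library 11 (0.32 and 0.44, edgeR adjusted p = 5.90e-04 and 7.31e-06).

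The carnitine-acylcarnitine carrier Slc25a20, which admits fatty acids for oxidation, held 17.4, 15.8, 16.1 and 17.0 and 13.3, 13.6, 21.2 and 12.2 CPM untreated and 15.0, 16.3, 16.3 and 15.2 and 12.4, 12.3, 12.9 and 14.0 CPM treated. All empty-vector libraries but library 11, at 21.2 CPM, were below all lentivirus libraries. It was not called with 16 libraries (-0.14 and -0.28, edgeR adjusted p = 0.416 and 0.116) and was lower without library 11 (-0.34 and -0.28, adjusted p = 3.56e-05 and 1.19e-04).

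Among the 8 remaining carriers none was higher with 16 libraries, 4 were lower untreated and 3 treated. Without library 11, 1 (Slc25a43) was higher and 6 were lower in each condition, with Slc25a46 (-0.11 in both) and Slc25a48 (-0.29 and -0.38) added to those lower. With 16 libraries their untreated changes were -0.32 and 0.98, not called. Slc25a45 held 16.6, 18.2, 17.0 and 17.3 and 17.1, 19.5, 16.1 and 16.6 CPM with the lentivirus, and 8.73, 8.33, 3.68 and 9.67 and 10.7, 9.44, 9.45 and 9.61 CPM with the empty vector. The groups did not overlap, and the log2 change was -1.18 (SE 0.207, edgeR adjusted p = 2.84e-04) and -0.82 (SE 0.205, adjusted p = 0.00465). Slc25a34, a scarce transcript named after its values were seen, held 0.571, 0.413, 0.513 and 0.754 and 0.753, 0.649, 0.807 and 0.732 CPM with the lentivirus against 0.0353, 0.0676, 0.311 and 0.0558 and 0.145, 0.190, 0.164 and 0.0530 CPM. It was lower, at -2.36 (edgeR adjusted p = 0.00132; -3.34 without library 11) and -2.39 (adjusted p = 8.45e-04). Slc25a35 was lower in both (-0.68 and -0.57, adjusted p = 0.00368 and 0.0126) and Slc25a53 untreated (-0.72, adjusted p = 0.00951), a call that ended with the compared groups alone. Without library 11 Slc25a53 was lower in both (-0.49 and -0.35, edgeR adjusted p = 6.97e-06 and 1.18e-04).

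**Figure D4:**
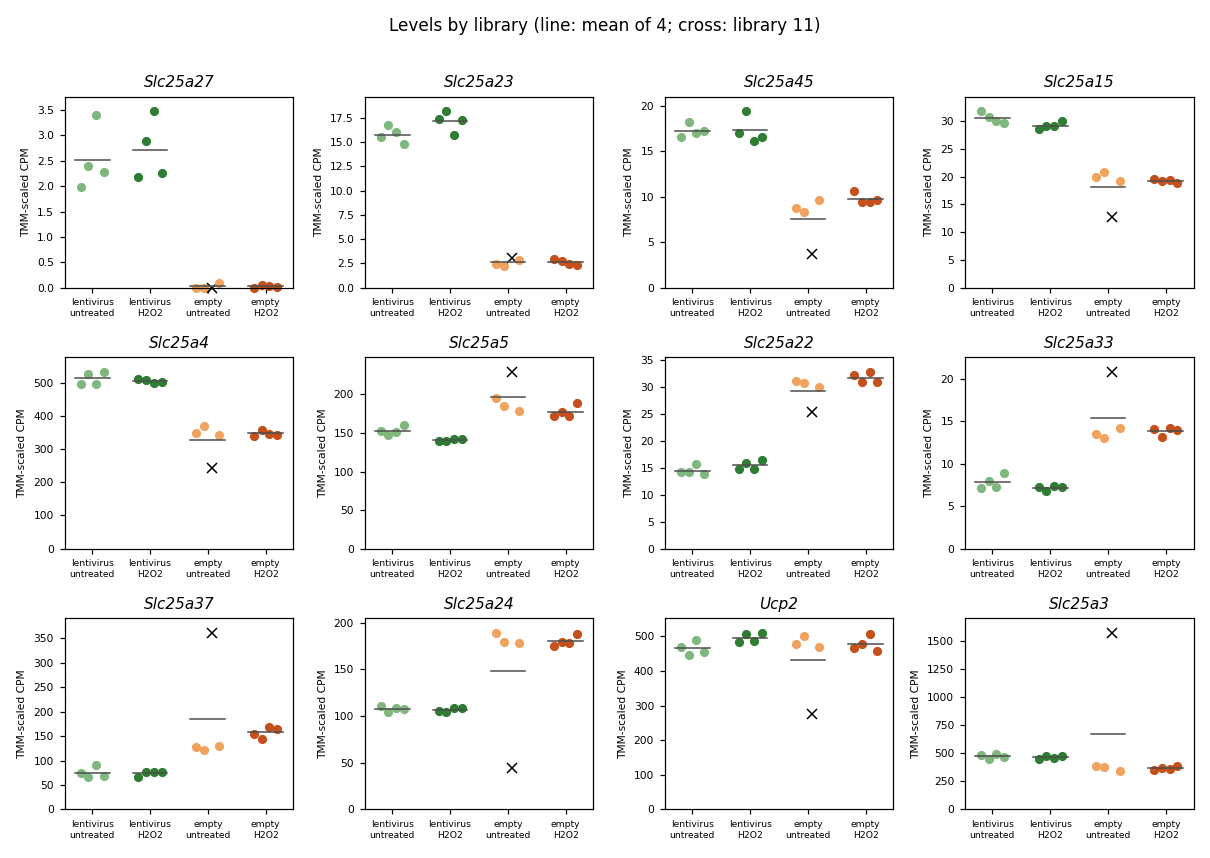
TMM-scaled CPM of 12 carriers in each library by group, with a line at the mean of the 4 libraries and a cross for library 11. Slc25a27, Slc25a23, Slc25a45, Slc25a15 and Slc25a4 are lower and Slc25a5, Slc25a22, Slc25a33 and Slc25a37 higher in every empty-vector library, while library 11 departs from its group in Slc25a24, Ucp2 and Slc25a3.

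Pairs of carriers that lie side by side were also read together. Slc25a43 and Slc25a5 are 18448 bases apart on chromosome X. The scarce Slc25a43 was not called with 16 libraries (1.01 untreated and 1.02 treated, edgeR adjusted p = 0.0578 and 0.0635) and was higher without library 11 (1.22 and 1.03, adjusted p = 0.0112 and 0.0228), as Slc25a5 was in both fits. Slc25a29 and Slc25a47, 162 bases apart on chromosome 12, were at -0.24 and -0.030 untreated without library 11, neither called (Slc25a47 at -0.29 with 16 libraries).

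Genes that work with the carriers were read from lists of 113 names, of which 107 were tested. With 16 libraries untreated empty-vector cells had 26 of them higher and 27 lower, and treated cells 22 and 16; without library 11 the counts were 35 and 43, and 38 and 40. Over all genes tested 29% were higher and 24.3% lower untreated, and 22.1% and 20% treated. Without library 11 these shares were 37% and 37.3%, and 36.6% and 37.2%. The list counts that follow stand against the same shares. Of the enzymes of matrix amino acid and one-carbon metabolism, 8 of 10 were higher and none lower in each condition (8 and 9 higher without library 11, none lower). Mthfd2, of the mitochondrial folate pathway, was higher by 3.14 and 2.92 (edgeR adjusted p = 1.38e-09 and 2.58e-09). Shmt2, which makes glycine from serine, was higher by 1.19 and 1.17 (adjusted p = 2.62e-10 and 2.99e-10). Glud1, glutamate dehydrogenase, was higher by 0.35 and 0.46 (adjusted p = 1.72e-05 and 1.27e-06).

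Of 14 shuttle and citrate enzymes, 9 were higher and 2 lower untreated, and 4 and 1 treated (10 and 4, and 8 and 4, without library 11). Gpd1, of the glycerol phosphate shuttle, was higher (2.69 and 2.64, edgeR adjusted p = 7.80e-09 and 9.13e-09), and the malic enzyme Me3 lower (-3.15 and -2.75, adjusted p = 2.46e-06 and 7.90e-06). Of 12 carnitine shuttle and fatty acid oxidation genes, 1 was higher and 6 lower untreated, and 1 and 5 treated (1 and 8, and 1 and 7, without library 11). Cpt1a, which makes the acylcarnitine that Slc25a20 carries, was lower (-0.45 and -0.66, adjusted p = 1.04e-04 and 2.90e-06), and Cpt1c, a little expressed paralogue, higher (1.57 and 1.41, adjusted p = 0.00226 and 0.00506).

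Of 13 genes for carrier insertion into the inner membrane, 1 was higher and 7 lower untreated, and 2 and 2 treated (2 and 9, and 3 and 7, without library 11). The receptor subunit Tomm20 was lower (-0.36 and -0.31, edgeR adjusted p = 0.0127 and 0.0317), as was Timm22, core of the carrier translocase (-0.26 and -0.23, adjusted p = 0.0203 and 0.0369). Tomm40 and Tomm70a, named after their values were seen, went the other way outside library 11. Tomm40 held 53.3 to 58.7 CPM with the lentivirus and 68.4 to 78.1 CPM with the empty vector (63.6 CPM in library 11). Tomm70a held 185 to 207 and 221 to 241 CPM (137 CPM in library 11). Of 20 other inner-membrane transporters, 4 were higher and 4 lower untreated, and 4 and 2 treated (7 and 9 in both without library 11). Mcub, a dampening subunit of the calcium uniporter, was higher (4.01 and 3.98, adjusted p = 2.28e-08 and 2.58e-08). With 16 libraries none of 5 genes listed with the outer-membrane pores was called in either condition by edgeR, and none had an unadjusted p under 0.05. Without library 11, 1 of them was higher in treated cells: Ppif, which encodes a matrix protein and not a pore (0.13, edgeR adjusted p = 0.00395). It was named after its values were seen.

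Of 12 iron and heme genes, none was higher and 2 lower untreated, and 1 and 2 treated (1 and 3, and 3 and 3, without library 11). Slc40a1, the iron exporter ferroportin, was lower (-9.63 and -9.12, edgeR adjusted p = 1.62e-10 and 1.61e-10). Tfrc, the transferrin receptor, was lower in treated cells (-2.41, adjusted p = 0.00199) and, without library 11, untreated (-2.43, adjusted p = 2.19e-17). Of 11 nucleotide and cofactor genes, none was higher with 16 libraries, 3 were lower untreated and 2 treated; without library 11, 2 were higher and 6 lower in both. Nnt, the NAD(P) transhydrogenase, was lower (-0.48 and -0.63, adjusted p = 8.99e-06 and 5.57e-07).

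Of 10 tested regulators of carrier and mitochondrial genes, 3 were higher and 3 lower untreated, and 2 and 2 treated (4 and 4 in both without library 11). Ppargc1a (PGC-1alpha), a coactivator of mitochondrial genes, was lower (-4.31 and -5.99, edgeR adjusted p = 2.72e-04 and 7.62e-05). It had 94 counts over the untreated lentivirus libraries and 4 over the empty-vector ones, all 4 of them in library 11, a ratio of 22.5 (95% counting interval 8.51 to 84.4). In treated cells the counts were 96 and 1, a ratio of 96.9 (17.0 to 3867). Ppard, named after its values were seen, went the other way. It held 40.9 to 44.9 CPM in lentivirus and 68.6 to 80.4 CPM in empty-vector libraries.

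The next comparisons ask how the carriers responded to H2O2. No carrier was called in either kind of cell, with 0% of all genes tested called with 16 libraries. At an unadjusted p under 0.05, edgeR had 9 of the 42 carriers in empty-vector cells and 0 in lentivirus cells, DESeq2 6 and 0 of the 38 it tested, and limma on log2(FPKM + 1) 1 and 0 of 40. Over all genes 14.7% and 1.77% were under that threshold by edgeR. Without library 11 edgeR still called none, with 4 and 6 carriers under the unadjusted threshold, where 13.7% and 14.6% of all genes were. The background of adjusted calls was 0.123% higher and 0.116% lower, 0.24% in all, in empty-vector and 0% in lentivirus cells. The carriers' log2 changes without library 11 ran from -0.21 to 1.35 in empty-vector and from -0.12 to 0.40 in lentivirus cells, and the highest in empty-vector cells was the scarce Slc25a34.

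The values nearest to a call without library 11 belonged to few carriers. In empty-vector cells Slc25a28 was at 0.22 (edgeR adjusted p = 0.126; 95% interval 0.081 to 0.35) and Slc25a37 at 0.31 (adjusted p = 0.141; 0.11 to 0.51). In lentivirus cells Slc25a37 was at -0.029 (-0.22 to 0.16) and Slc25a28 at -0.010 (-0.14 to 0.12). Slc25a5 was at -0.12 in lentivirus cells (adjusted p = 0.180), where its treated and untreated libraries did not overlap, and Slc25a29 at 0.29 (adjusted p = 0.215). Ucp2 was at -0.016 (-0.098 to 0.066) in empty-vector and 0.095 (0.019 to 0.17) in lentivirus cells.

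**Figure D5:**
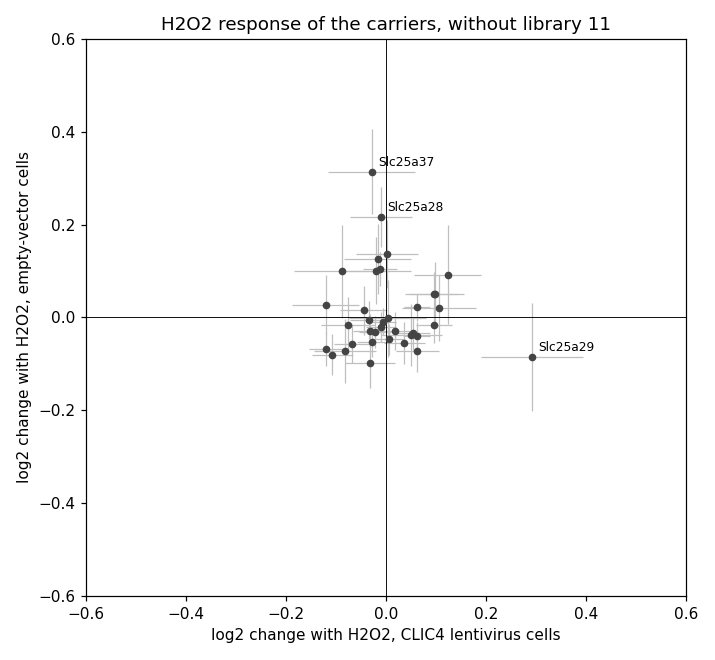
Log2 change with H2O2 in lentivirus cells (horizontal) and empty-vector cells (vertical) without library 11, for 36 carriers whose average log2 CPM was 2 or more; bars are 1 standard error from edgeR. Most points lie close to 0 on both axes, with Slc25a37 and Slc25a28 highest in empty-vector cells and Slc25a29 farthest right; none was called.

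The difference of these responses between the vectors was called for no carrier, with 16 libraries (1 carrier at an unadjusted p under 0.05 by edgeR, 0 by DESeq2 and 1 by limma; 5.95% of all genes by edgeR; 0% of all genes called) or without library 11 (6 carriers at an unadjusted p under 0.05, as were 16.4% of all genes; adjusted calls 0.0685% higher and 0.123% lower, 0.192% in all). Without library 11 it was 0.34 for Slc25a37 (edgeR adjusted p = 0.203), 0.23 for Slc25a28 (adjusted p = 0.218), -0.38 for Slc25a29 (adjusted p = 0.228) and -0.11 for Ucp2 (adjusted p = 0.309). The 95% interval of the Slc25a37 difference was 0.069 to 0.62, and that of Ucp2 -0.22 to 0.00093.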

How the data were processed

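Per the labels' protocols, RNA was isolated with an RNeasy kit (Qiagen) before Illumina library preparation. The submitters' processing notes name cutadapt, STAR, RSEM and the build mm10. Versions, annotation and strand: not given in the sources used here. For each gene and library the authors deposited one estimated count, an expected count in the terms of RSEM, already in whole numbers. The deposited FPKM values carry the authors' scaling to length and depth.

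Groups came from sample titles. The test was edgeR 4.0.16 (R 4.3.3), a robust quasi-likelihood fit over all 16 libraries with a coefficient per group, TMM scaling, filterByExpr and Benjamini-Hochberg adjustment over 14445 genes (14602 without library 11), with calls at 0.05. With library 11 edgeR's biological coefficient of variation came to 23.1%, otherwise 5.28%. Standard errors are the log2 change over the square root of F. No pair of replicates agreed within sampling noise (lowest chi-square per degree of freedom 5.05).

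The carriers and gene lists were chosen with earlier results of these data known. Values by library were given for members called the same way in both vector comparisons whose average log2 CPM was 2 or more (the 6 highest and 6 lowest by mean change; 5 and 7 were eligible), and for a fixed set of carriers. Related genes were the largest rise and fall of a list and up to 2 more, of which the text names a part. Results were recomputed with DESeq2 1.42.0, RLE size factors, no filter, the compared groups alone, each library left out, and limma 3.58.1 on FPKM with a pseudocount of 1 or 0.1, for genes of at least 0.5 FPKM in 4 libraries; log2 changes on that scale are understated for low genes. The test was checked on simulated data. The values of 1 carrier are not reported here, though it is kept in the fits and counts. Positions were matched by symbol to GENCODE vM21 on mm10. Figures were drawn with matplotlib 3.10.9.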

Additional observations from a re-analysis of the deposited data

Results flagged for a closer look

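Values by library were screened for a sample far from the other 3 of its group by Dixon's ratio of gap to range at the 95% level; chance gives about 1 in 20 groups. Of 88 groups of 4 libraries (22 carriers), 18 held such a sample, 12 of them library 11.

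In untreated empty-vector cells library 11 was the high sample for Slc25a3 (1572 CPM), Slc25a37 (362 CPM), Slc25a39 (381 CPM), Slc25a10 (94.4 CPM), Slc25a28 (90.3 CPM), Slc25a25 (51.1 CPM), Slc25a20 (21.2 CPM), Slc25a33 (20.8 CPM) and Slc25a34 (0.311 CPM). It was the low sample for Ucp2 (275 CPM), Slc25a51 (65.7 CPM) and Slc25a24 (44.4 CPM). The direction for Slc25a39 depended on the scale. In deposited FPKM library 11 was the lowest of its group for that gene, at 197.9 against 204.86 to 208.12.

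In the same group Slc25a27 was higher in library 12 (0.0930 CPM) than in the others, which were at 0. In treated empty-vector cells Slc25a45 was high in library 13 (10.7 CPM) and Slc25a26 in library 14 (11.7 CPM). In lentivirus cells Slc25a37 was low in treated library 5 (65.5 CPM), Slc25a28 was high in untreated library 3 (20.8 CPM) and Slc25a25 in untreated library 1 (5.55 CPM).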

How the results depend on the processing

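Leaving out library 11 changed the most. Leaving out each library in turn, the number of carriers called in untreated cells ran from 10 to 15 higher and 11 to 22 lower, and in treated cells from 5 to 14 higher and 9 to 22 lower, with each maximum without library 11. All genes called ran from 3662 to 5409 higher and 3041 to 5449 lower untreated, and from 2882 to 5347 and 2419 to 5432 treated. Related genes called ran from 22 to 35 and 18 to 43 untreated, and from 20 to 38 and 10 to 40 treated. In the response to H2O2 of empty-vector cells all genes called ran from 0 to 18 higher and 0 to 17 lower, with 0 to 1 related genes higher, and in the difference of responses from 0 to 10 higher and 0 to 18 lower. No carrier was called in the H2O2 comparisons under any alternative.

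Without library 11 the untreated log2 change reversed for 6 carriers named here. Over the libraries left out in turn it ran from -0.36 to 0.72 for Slc25a3, -0.24 to 2.55 for Slc25a29, -0.26 to 0.50 for Slc25a44 and -0.29 to 1.24 for Slc25a48, each lowest without library 11. It ran from -0.12 to 0.091 for Slc25a12 and -0.16 to 0.14 for Slc25a32, each highest without library 11. A change of sign in a value called in neither fit was not counted as a reversal.

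Untreated, related genes called lower fell from 27 to 17 with no filter, 17 on log2(FPKM + 1), 16 on log2(FPKM + 0.1) and 11 with the compared groups alone, which also left 5 carriers higher, 2430 genes higher, 1996 lower and 13 related genes higher. Treated, related genes called lower were 10 on either FPKM scale and all genes lower 1886 on log2(FPKM + 0.1). The treated groups alone, without library 11 in the fit, gave 14 carriers higher and 22 lower, 5183 genes higher and 5308 lower, and 38 and 42 related genes. DESeq2 called 38 genes higher and 20 lower with H2O2 in empty-vector cells, 1 lower in lentivirus cells, and 1 higher and 16 lower for the difference; the lentivirus groups alone gave 20 higher and 101 lower. The cause of these changes was not tested.

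The untreated calls of Slc25a1, Slc25a10, Slc25a11, Slc25a28, Slc25a29, Slc25a30, Slc25a39, Slc25a51 and Slc25a53 ended with the compared groups alone. On either FPKM scale the calls of Slc25a1, Slc25a29 and Slc25a51 ended untreated, and those of Slc25a1, Slc25a11, Slc25a26 and Slc25a51 treated. With no filter the call of Slc25a1 ended untreated, and those of Slc25a1, Slc25a11 and Slc25a51 treated. On the FPKM scales the median of all genes shifted by 0.11 (pseudocount 1) and 0.14 (0.1) in the H2O2 response of empty-vector cells and in the difference of responses. No paired analysis was possible because no library number is shared between groups. Carriers with few counts, such as Slc25a27 and Slc25a34, are limited by depth.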
